A study of Mus musculus with 12 samples.

Results

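The genes of glycolysis, glucose uptake and glycogen described here are 35 genes, chosen by symbol from the 27179 genes of the deposited table of mouse hearts. All 35 were found in the table, and all 35 passed the filter on low values (a mean normalized value of at least 10 over the 12 libraries), which kept 14038 genes. They encode glucose transporters, the enzymes from hexokinase to lactate dehydrogenase with their isoforms, the PFKFB enzymes that set phosphofructokinase activity, a lactate exporter, the glycerol-3-phosphate shuttle and the enzymes of glycogen. Hearts came from Balb/cJ mice and from Balb/cByJ mice, a substrain that the series' title marks with a deletion of Acads. The product of that gene oxidises short-chain fatty acids in mitochondria. Each strain had either sham surgery or a transverse aortic constriction (TAC), a band around the aortic arch against which the left ventricle has to pump. Mice of all 4 groups, with 3 libraries each, ate a low-fat diet (10 kcal% fat) from 4 days before surgery until the hearts were taken 1 week after it. The labels used here give no age or sex of the mice and do not speak of pooling, nor do they say whether the libraries of a group came from separate mice. P-values therefore measure only the spread between these libraries, which may be technical. The comparisons ask how pressure load changed these genes in each strain, whether the strains differed after either surgery, and whether the response to TAC differed between strains.

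The adult heart burns mainly fatty acids and takes a smaller part of its energy from glucose and lactate. Glucose enters through GLUT4, whose surface level insulin and contraction control, and through GLUT1, which insulin controls little. It is then split by glycolysis, with phosphofructokinase as a main control point, or stored as glycogen. Many steps are run by alternative isoenzymes, a muscle form (such as Pfkm, Pgam2, Eno3, Pygm) and forms typical of other tissues or of the fetal heart. Hearts under pressure load are known to rely more on glucose and less on fatty acids.

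Values are normalized read counts per gene and library, as the authors deposited them. Their sums ran from 25161466 to 34157613 per library; counting error weighs most on the genes with the lowest values, such as Aldoc, Eno2 and Slc16a3. Across genes, which are not independent of each other, r between libraries of a group was 0.974 to 0.988. The 35 genes held 1.81 to 2.49% of a library's sum. The 10 cardiomyocyte markers, among them Myh6 and Tnnt2, summed to at least 1723818 in every library and none was at 0, as the label of heart tissue requires. The library labelled TAC Balb/cByJ 6 goes against its strain label. Zhx2, a repressor whose level differs among BALB/c substrains, was at 21 to 47 in the Balb/cJ libraries, at 728 to 838 in the other 5 Balb/cByJ libraries and at 48 in this one. Dnah17, an axonemal dynein, was at 805 to 1019 in those 5 libraries, at 2 in this one and at no more than 11 in the Balb/cJ libraries. This library is kept as labelled. Values without it stand beside the calls among the 35 genes, the counts of these calls and the interactions printed. Most other values that use it, such as marker sums and counts, are given with it alone. TAC libraries carry the numbers 4 to 6 of their columns, which the titles do not use.

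Divided by transcript length, enzymes from aldolase to lactate dehydrogenase led the 35 genes. Levels per kilobase, averaged over all libraries, were 54640 for Aldoa (aldolase A), 46370 for Eno3 (muscle enolase), 39380 for Ldhb (the heart subunit of lactate dehydrogenase), 29180 for Gapdh and 28930 for Pgam2 (muscle phosphoglycerate mutase). Glycogen phosphorylase followed with 14640 for the muscle form Pygm and 11530 for the brain form Pygb. Slc2a4, the GLUT4 gene, stood at 5483 per kilobase and Slc2a1, the GLUT1 gene, at 231. The lowest levels per kilobase were those of Eno2 (neuronal enolase, 62.6), Gpd2 (mitochondrial glycerol-3-phosphate dehydrogenase, 57.0), Slc16a3 (the lactate exporter MCT4, 54.4) and Aldoc (aldolase C, 8.42). Neighbours such as Gapdh and Pgam2 overlapped, with 22440 to 49570 and 19580 to 48950 per kilobase over the libraries.

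In Balb/cJ hearts, 2 of the 35 genes were higher and 11 were lower after TAC, and 22 did not pass (limma on all genes, Benjamini-Hochberg adjusted p under 0.1). Over all genes tested 15.3% were called higher and 16.2% lower, 31.5% in either direction, and 36.8% had an unadjusted p under 0.05 (15 of the 35), so the lower share of the 35 (31.4%) lies above the background and the higher share (5.71%) below it. Eno2 and Slc16a3 rose. Slc2a4, Hk2, Pfkm, Pfkfb2, Aldoa, Tpi1, Gapdh, Pgam2, Eno3, Ldhb and Pygm fell. Slc2a4 is the GLUT4 gene, Hk2 the insulin-responsive hexokinase, and Pfkm, Pgam2, Eno3 and Pygm are muscle forms of their steps. The median log2 fold change of the 35 was -0.15, against 0.00 over all genes tested, and 24 of the 35 were negative. The TAC and sham libraries did not overlap for 10 genes that were lower (18.1% of all genes) and for 2 that were higher (18.8% of all genes).

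Cardiomyocyte markers moved in the same direction. Their sum ran from 2463797 to 3245355 in sham Balb/cJ and from 1723818 to 2289185 in TAC Balb/cJ, and 4 of 10 were called lower (median log2 -0.41). Macrophage markers rose in 9 of 10 members and fibroblast markers in 8 of 9, with sums of 4804 to 7094 against 10227 to 12956 and of 41151 to 61623 against 102164 to 223269. Endothelial markers fell in 6 of 7 members, from 21241 to 32318 to 18476 to 19820. Atrial markers rose in 7 of 9 members, from 9797 to 20159 to 43199 to 156275. In whole tissue, fewer cells of a type and less RNA per cell cannot be told apart, and the part of these markers in the falls was not tested. Scaled so that every library had the same cardiomyocyte marker sum, an alternative chosen after seeing the data, the median of all genes rose by 0.47 (log2), 14 members were higher and 1, Ldhb, was lower, against 51.3 and 1.21% of all genes. Scaled to the same total of all genes, that median rose by 0.21, and 7 members were higher and 6 lower, against 28.1 and 6.34% of all genes. Hk2, Pfkm, Aldoa, Tpi1 and Pygm turned to between 0.00 and 0.17 with the cardiomyocyte scaling, all below the shift of the median. A scaling shifts all genes by nearly the same amount, so their place below the median could not change. With the level of 3 atrial genes as a covariate, 0 of the 35 passed by limma (4 at an unadjusted p under 0.05) and 0 of all genes (1431 at an unadjusted p under 0.05). Pfkfb2 turned to 0.04 with this covariate. Its genes Myl7, Myl4 and Sln did not overlap between sham and TAC Balb/cJ, with means of 10, 117 and 3.33 against 9035, 13487 and 2491.7. The covariate thus ran with surgery there, and the SE of Slc2a4 went from 0.15 to 0.28. That fit cannot tell atrial level and surgery apart, so its lost calls say nothing about either. Given the other scalings, falls in Balb/cJ are relative to the scaling that the authors deposited.

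**Figure D1:**
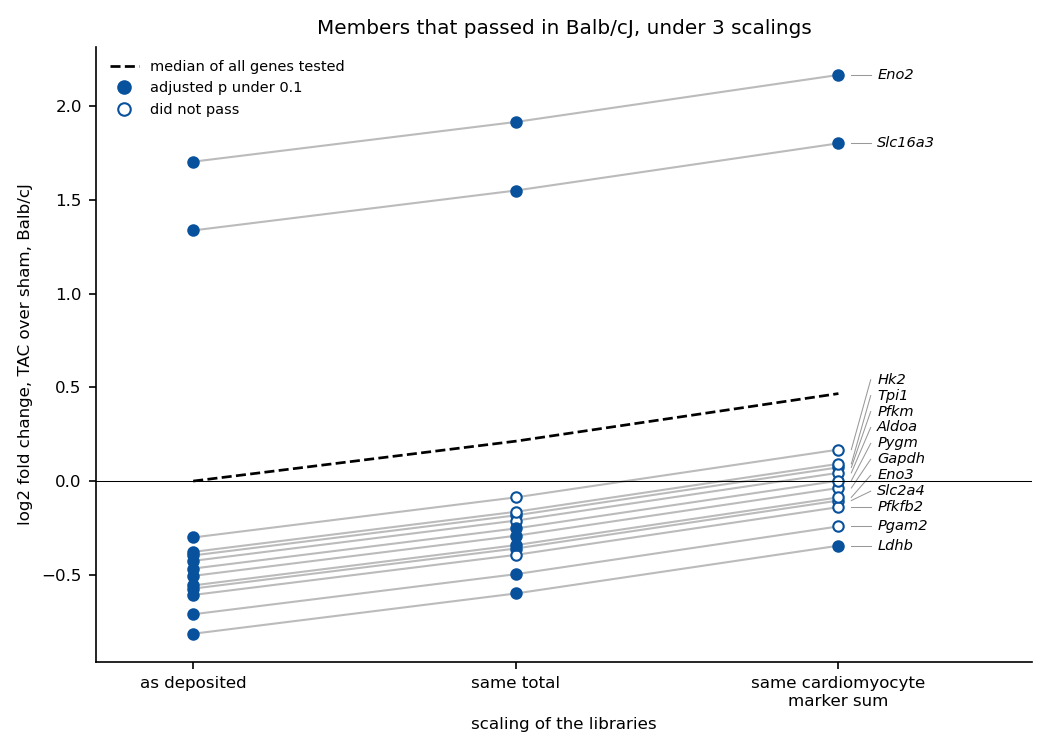
Log2 fold change of TAC over sham in Balb/cJ (vertical axis) for the 13 members that passed, with the libraries scaled as deposited, to the same total and to the same cardiomyocyte marker sum (horizontal axis). Filled points passed at an adjusted p under 0.1, and the dashed line is the median of all genes tested, which moves from 0.00 to 0.21 and 0.47. Every line moves up with the dashed one, because a scaling shifts all genes by nearly the same amount. That the 11 members that fell stay below it was thus fixed in advance and is no separate observation.

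Glucose uptake and the first step of glycolysis were described by 2 pairs of alternatives. Slc2a4 (chr11:69942286-69948190, minus strand, mm10 as deposited) was at 17290, 21158 and 20389 in sham Balb/cJ, 15946, 13495 and 10512 in TAC Balb/cJ, 16826, 14072 and 17793 in sham Balb/cByJ and 12280, 12874 and 13035 in TAC Balb/cByJ. Each TAC library of a strain was below each of its sham libraries. The fall was -0.57 ± 0.15 (log2 fold change ± SE) in Balb/cJ, a change of -32.8%, with an adjusted p of 0.0213, and the difference in Balb/cByJ was -0.34 ± 0.15 (adjusted p = 0.163), which did not pass. Slc2a1 was at 448 to 815 over all libraries, with -0.20 to 0.52 as the 95% interval of its log2 difference in Balb/cJ and -0.25 to 0.46 in Balb/cByJ, and its groups overlapped.

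Per length, Slc2a1 made up 3.34, 3.20 and 3.01% of the 2 transporters in sham Balb/cJ and 4.17, 4.21 and 7.84% in TAC Balb/cJ. In Balb/cByJ its shares were 3.36, 3.37 and 3.94% after sham and 5.45, 4.62 and 4.32% after TAC. Shares within a family do not change with the scaling of a library, and those of Slc2a1 after TAC lay above those after sham in both strains. They are given as a description, with no test.

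Hk2, the insulin-responsive muscle hexokinase, was at 8512, 9138 and 8180 in sham Balb/cJ and 7159, 6350 and 7481 in TAC Balb/cJ. It fell by 0.30 ± 0.12 (-18.8%, adjusted p = 0.0832), without overlap. Its values in Balb/cByJ were 8882, 7210 and 9430 after sham and 7236, 6532 and 8006 after TAC (-0.22 ± 0.12, adjusted p = 0.236), and these overlapped. Hk1, the form found in most tissues, was at 6774, 8651 and 7925 and at 7250, 8133 and 11393 in sham and TAC Balb/cJ and did not pass (0.18 ± 0.15, adjusted p = 0.402). Its share of the pair per length was 49.3 to 54.2% in sham Balb/cJ and 55.3 to 65.1% in TAC Balb/cJ, while the Balb/cByJ groups overlapped. Gpi1, the isomerase of the next step, ran from 18204 to 26968 and passed in none of the 5 comparisons.

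Of the phosphofructokinase isoforms, 1 rose in Balb/cByJ. Pfkp (the platelet form, chr13:6579874-6648724, minus strand) was at 1329, 1497 and 1204 in sham Balb/cByJ and 2528, 2555 and 1966 in TAC Balb/cByJ. All TAC libraries, the library labelled TAC Balb/cByJ 6 included, were above all sham libraries of that strain. It rose by 0.80 ± 0.21 (1.74-fold, adjusted p = 0.0564), and by 0.93 ± 0.23 (adjusted p = 0.0744) without TAC Balb/cByJ 6. In Balb/cJ the values were 2089, 2579 and 2193 after sham and 2164, 2752 and 4493 after TAC, which overlapped, and the difference of 0.39 ± 0.21 (adjusted p = 0.200) did not pass. The strain by surgery interaction of Pfkp, 0.41 ± 0.30 (95% interval -0.25 to 1.06), did not pass either (adjusted p = 0.804). It was 0.53 ± 0.31 (adjusted p = 0.862) without TAC Balb/cByJ 6. Reads of Pfkp and of Pitrm1, which shares 285 exon bases on the opposite strand, cannot be told apart if strand was not used in counting. The same holds for Slc2a1 with Gm19660 (623 bases), Phkg1 with Sumf2 (517) and Gpd2 with A930012O16Rik (359). It also holds for Pfkfb2 with Yod1 (154) and Tpi1 with Spsb2 (23).

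The muscle form Pfkm was at 37725, 44109 and 42401 in sham Balb/cJ and 37669, 32881 and 24962 in TAC Balb/cJ. It fell by 0.40 ± 0.14 (-24.0%, adjusted p = 0.0651), and without TAC Balb/cJ 6 the difference was -0.23 and did not pass (adjusted p = 0.214). The Balb/cByJ values were 36301, 34816 and 38150 after sham and 29925, 29507 and 29323 after TAC, without overlap, yet the difference of -0.30 ± 0.14 did not pass (adjusted p = 0.200). Pfkl, the liver form, was at 5945, 8619 and 7372 in sham Balb/cJ and 6122, 5571 and 6837 in TAC Balb/cJ and did not pass (-0.23 ± 0.12, adjusted p = 0.195). Per length, Pfkp made up 2.49, 2.91 and 2.16% of phosphofructokinase in sham Balb/cByJ and 5.42, 5.60 and 4.38% in TAC Balb/cByJ. In Balb/cJ its share went from 3.62, 3.71 and 3.35% to 3.73, 5.33 and 10.1%, and the highest of these is TAC Balb/cJ 6, which also had the lowest cardiomyocyte marker sum of all libraries.

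PFKFB enzymes make and remove fructose-2,6-bisphosphate, the activator of phosphofructokinase. None of their 3 isoforms passed between the strains or in the interaction. Pfkfb2, the heart form that insulin and adrenaline activate, was at 2044, 1710 and 1841 in sham Balb/cJ and 1157, 1180 and 1331 in TAC Balb/cJ. It fell by 0.61 ± 0.17 (-34.4%, adjusted p = 0.0258), while the values of 2002, 1335 and 2004 against 1750, 1258 and 1270 in Balb/cByJ overlapped (-0.31 ± 0.17, adjusted p = 0.243). Pfkfb1, the liver and muscle form, was at 385, 572 and 681 in sham Balb/cJ, 912, 450 and 183 in TAC Balb/cJ, 878, 972 and 1058 in sham Balb/cByJ and 477, 635 and 489 in TAC Balb/cByJ. Pfkfb3, the inducible form, was at 585, 482 and 406, at 572, 608 and 247, at 571, 648 and 461 and at 930, 898 and 652 in the same order of groups.

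In Balb/cByJ the TAC libraries lay below the sham libraries for Pfkfb1 and above them for Pfkfb3, with no overlap. By limma neither difference passed, at -0.87 ± 0.42 (adjusted p = 0.208) and 0.56 ± 0.29 (adjusted p = 0.238). Both carried an adjusted p under 0.1 in the authors' deposited table, with shrunken log2 fold changes of -0.80 (8.71e-07) and 0.50 (0.0177). Per length, Pfkfb3 made up 13.1, 14.8 and 9.58% of the 3 isoforms in sham Balb/cByJ and 27.7, 25.4 and 22.9% in TAC Balb/cByJ, and Pfkfb1 went from 61.7 to 68.4% to 43.6 to 55.1%. In Balb/cJ the shares of Pfkfb1, Pfkfb2 and Pfkfb3 overlapped between sham and TAC. Balb/cJ values of Pfkfb1 and Pfkfb3 spread widely after TAC, with the lowest of both in TAC Balb/cJ 6.

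**Figure D2:**
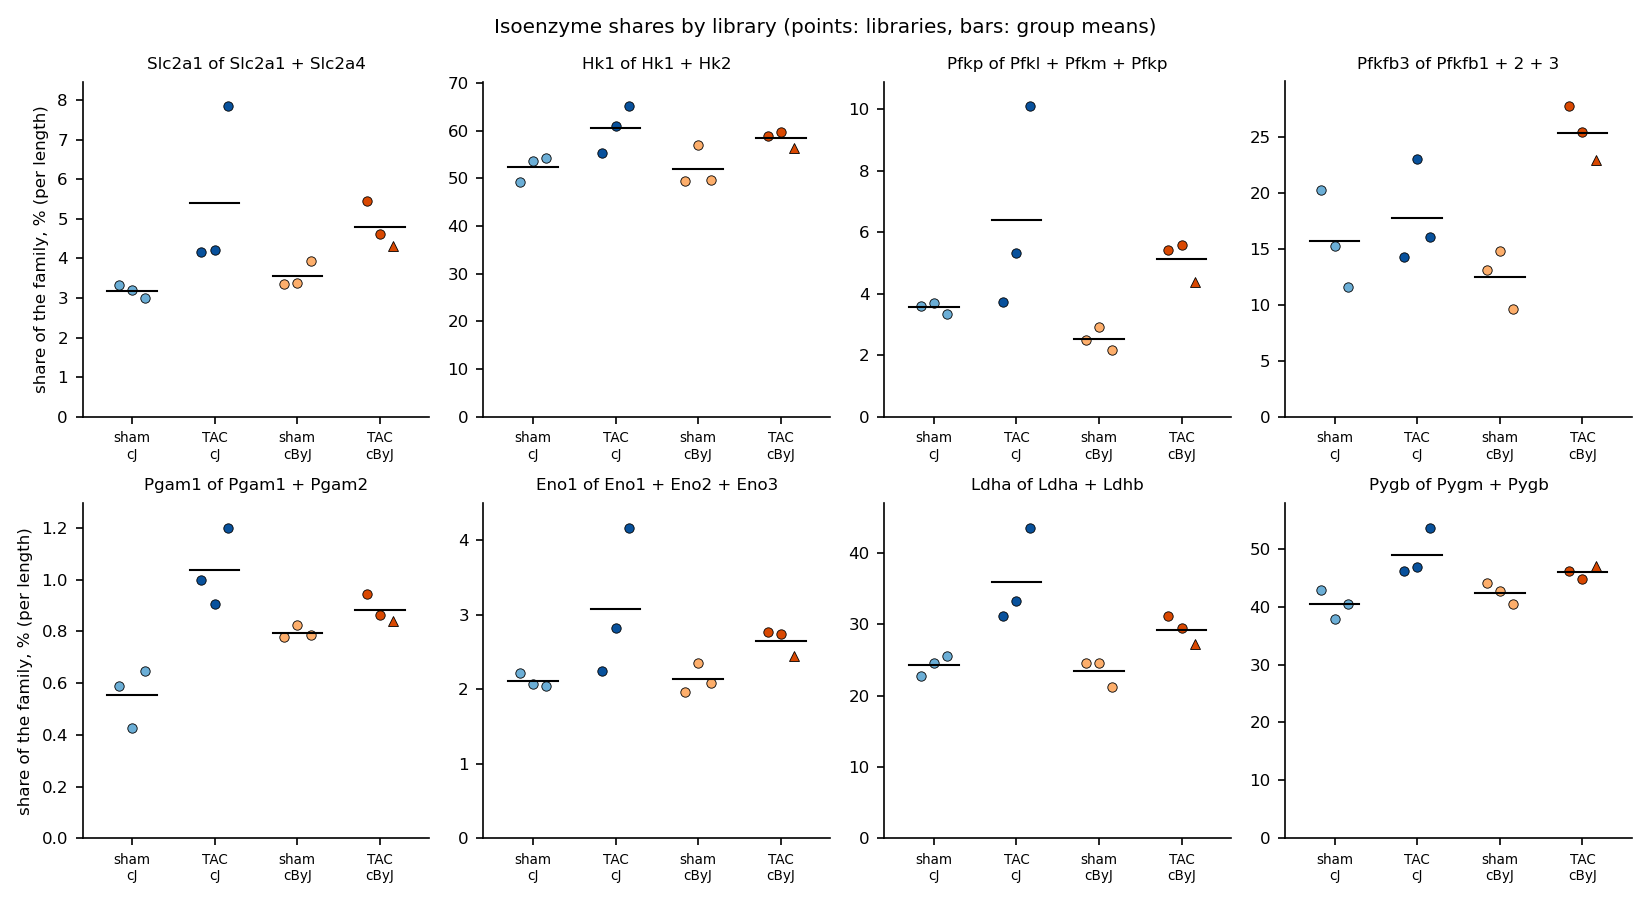
Share of one isoenzyme among the forms of its step, from values divided by transcript length (vertical axis, %), in each library (points) with group means (bars), for sham and TAC of Balb/cJ (cJ) and Balb/cByJ (cByJ). Triangles mark the library labelled TAC Balb/cByJ 6. Shares of Slc2a1, Pfkp, Pgam1, Eno1, Ldha and Pygb after TAC lie above those after sham in both strains, and that of Pfkfb3 does so in Balb/cByJ.

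Of the steps that split the sugar, aldolase, triosephosphate isomerase and glyceraldehyde-3-phosphate dehydrogenase fell in Balb/cJ. Gapdh (chr6:125161852-125165583, minus strand), often used as a reference gene, was at 38888, 61074 and 50761 in sham Balb/cJ and 35805, 34689 and 33863 in TAC Balb/cJ, a fall of 0.51 ± 0.15 (-29.6%, adjusted p = 0.0334). Its Balb/cByJ values were 30297, 27934 and 31374 after sham and 27652, 31131 and 27978 after TAC, a difference of -0.05 ± 0.15 with a 95% interval of -0.37 to 0.28. Without sham Balb/cJ 2 the Gapdh difference in Balb/cJ was -0.35 and did not pass (adjusted p = 0.124). Aldoa was at 105618, 158738 and 128625 in sham Balb/cJ and 95524, 98272 and 94794 in TAC Balb/cJ (-0.43 ± 0.17, adjusted p = 0.0916), and without sham Balb/cJ 2 the difference was -0.28 (adjusted p = 0.304). Tpi1 was at 27942, 40731 and 38870 in sham and 27417, 28000 and 26268 in TAC Balb/cJ (-0.38 ± 0.14, adjusted p = 0.0692), and these overlapped by 1 library. Both fell in Balb/cJ and did not pass in Balb/cByJ, where Aldoa was at 97250, 81686 and 94593 after sham and at 80968, 86410 and 73555 after TAC, and Tpi1 at 29984, 26594 and 29010 and at 22531, 24496 and 21539.

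Aldoc, the brain form of aldolase, was near the filter, at 8, 12 and 16 in sham Balb/cJ, 10, 4 and 14 in TAC Balb/cJ, 7, 13 and 9 in sham Balb/cByJ and 10, 42 and 27 in TAC Balb/cByJ. After TAC in Balb/cByJ it was 1.19 ± 0.55 higher, which did not pass (adjusted p = 0.189). Pgk1, which makes the first ATP of the pathway, ran from 2903 to 5094, and Bpgm, which makes the 2,3-bisphosphoglycerate of red cells, from 632 to 1051. Neither passed in any of the 5 comparisons. Erythroid markers, which move with red cells in the tissue, summed to 10400 to 24675 in sham and 6368 to 15088 in TAC Balb/cJ, with 0 of 4 tested members called by limma. RefSeq names 5 copies of Aldoa, 3 each of Gapdh, Pgk1 and Ldha, 2 of Pgam1 and 1 of Ldhb elsewhere in the genome, which can share their reads, so the levels of these genes are uncertain.

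Pgam2 (chr11:5801637-5803796, minus strand) was at 29036, 44351 and 36128 in sham Balb/cJ, 23307, 25649 and 17741 in TAC Balb/cJ, 27895, 23969 and 25990 in sham Balb/cByJ and 17768, 24537 and 18198 in TAC Balb/cByJ. It fell by 0.71 ± 0.18 in Balb/cJ (-38.9%, adjusted p = 0.0218), where the groups did not overlap. In Balb/cByJ 1 TAC library reached into the sham range, and the difference of -0.38 ± 0.18 did not pass (adjusted p = 0.211). Pgam1, the form of other tissues, was at 348, 384 and 475 and at 477, 474 and 434 in sham and TAC Balb/cJ (0.21 ± 0.14, adjusted p = 0.297). Its share of phosphoglycerate mutase per length was 0.426 to 0.646% in sham and 0.906 to 1.20% in TAC Balb/cJ, against 0.778 to 0.823% and 0.841 to 0.943% in Balb/cByJ.

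Among the enolases, Eno2 was the only one of the 35 genes that passed after TAC in both strains. Eno2 (chr6:124760055-124769509, minus strand), a form known from neurons and neuroendocrine cells, was at 70, 62 and 62 in sham Balb/cJ and 160, 136 and 442 in TAC Balb/cJ. It rose by 1.71 ± 0.46 (3.26-fold, adjusted p = 0.0244), without overlap. In Balb/cByJ it was at 79, 166 and 54 after sham and 158, 334 and 252 after TAC, and sham Balb/cByJ 2 lay above the lowest TAC library. The rise there was 1.40 ± 0.46 (2.64-fold, adjusted p = 0.0882), and without TAC Balb/cByJ 6 it did not pass (1.36 ± 0.53, adjusted p = 0.176). The interaction was -0.31 ± 0.65 (95% interval -1.71 to 1.10), and -0.35 ± 0.71 without TAC Balb/cByJ 6. Leaving out 1 library at a time, the rise was 1.18 to 2.03 in Balb/cJ and 1.04 to 1.84 in Balb/cByJ. With the atrial covariate, which ran with surgery in Balb/cJ and cannot be told apart from it, the Balb/cJ value was 0.01 ± 0.695. Markers of neurons and Schwann cells moved with Eno2, with sums of 270 to 326 in sham and 492 to 833 in TAC Balb/cJ (2 of 7 rose) and of 269 to 434 and 493 to 2090 in Balb/cByJ (4 of 7 rose), and their part was not tested.

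Eno3 (chr11:70657213-70662513, plus strand), the muscle enolase, was at 72541, 110639 and 97467 in sham Balb/cJ and 75125, 67103 and 48772 in TAC Balb/cJ, and fell by 0.56 ± 0.19 (-32.0%, adjusted p = 0.0578) with 1 library overlapping. In Balb/cByJ 69985, 63513 and 74657 after sham stood above 50909, 58028 and 56461 after TAC, but the difference of -0.33 ± 0.19 did not pass (adjusted p = 0.286). Eno1, the form of most tissues, was at 1924, 2729 and 2386 and at 2027, 2282 and 2495 in sham and TAC Balb/cJ and at 1649, 1801 and 1864 and at 1696, 1923 and 1659 in Balb/cByJ, with differences of -0.04 ± 0.12 and -0.01 ± 0.12. Its share of enolase per length rested at 2.05 to 2.22% in sham and 2.25 to 4.17% in TAC Balb/cJ, and at 1.97 to 2.36% and 2.45 to 2.77% in Balb/cByJ. Eno1b, a gene nearly identical to Eno1, was listed at 329 to 553, and reads between them may be split.

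Up to 250 bases before a RefSeq transcription start are shown for Eno2, which passed in both strains, and, chosen after their values were seen, for Slc16a3 and Pfkp, the other members that rose. Sequences are from RefSeq on GRCm38.p6, 5′ to 3′ on the strand of the gene, and capitals mark ACGTG and GCGTG, the core letters that the hypoxia-inducible factor HIF-1 binds. They are chr6:124769674-124769862 (minus strand, without the farthest 61 bases, which lie in a UTR of the neighbouring gene Lrrc23) for Eno2, chr11:120948817-120949066 (plus strand) for Slc16a3 and chr13:6648772-6649021 (minus strand) for Pfkp. Those of Eno2 and Pfkp lie before the deposited gene's start on its strand, and that of Slc16a3 lies inside the deposited gene, which begins before this RefSeq start.
Eno2: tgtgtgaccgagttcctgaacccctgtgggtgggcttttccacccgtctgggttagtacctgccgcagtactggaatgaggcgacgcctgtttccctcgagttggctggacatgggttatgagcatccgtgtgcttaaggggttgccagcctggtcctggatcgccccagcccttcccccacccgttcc
Slc16a3: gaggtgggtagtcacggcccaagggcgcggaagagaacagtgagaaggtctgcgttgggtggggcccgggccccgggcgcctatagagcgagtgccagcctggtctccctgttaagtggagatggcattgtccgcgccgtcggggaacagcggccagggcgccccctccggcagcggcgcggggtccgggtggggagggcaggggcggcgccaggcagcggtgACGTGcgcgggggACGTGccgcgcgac
Pfkp: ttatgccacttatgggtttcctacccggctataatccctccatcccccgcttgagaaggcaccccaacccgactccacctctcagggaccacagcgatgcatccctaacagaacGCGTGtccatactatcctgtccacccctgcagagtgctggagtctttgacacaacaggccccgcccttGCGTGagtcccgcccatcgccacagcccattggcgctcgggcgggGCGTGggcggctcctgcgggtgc
On both strands, the whole 250 bases of Eno2 held 0 such matches, that of Slc16a3 held 2 of ACGTG and that of Pfkp 3 of GCGTG. Of the 35 genes 33 had entries, with 52 windows in all, and 35 of these windows (67.3%) held ACGTG or GCGTG on either strand. Over all windows of the same length, 12679 of 32851 (38.6%) did. These were not matched to the members' windows in expression or base content. Windows of the same gene, up to 4 for Pfkm and Pfkfb1, are not separate observations. A match of letters is a description and shows no binding.

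At the end of the pathway, the lactate genes split. Slc16a3 (chr11:120948484-120959000, plus strand), which exports lactate from glycolytic cells, was at 65, 81 and 104 in sham Balb/cJ and 158, 172 and 333 in TAC Balb/cJ, and rose by 1.34 ± 0.34 (2.53-fold, adjusted p = 0.0213) without overlap. In Balb/cByJ it was at 68, 75 and 112 after sham and 207, 209 and 99 after TAC. The low TAC value there is that of the library labelled TAC Balb/cByJ 6. With it the difference of 0.96 ± 0.34 did not pass (adjusted p = 0.110), and without it the rise of 1.32 ± 0.32 passed (adjusted p = 0.0706). Macrophage markers, which also rose, summed to 4894 to 7425 after sham and 10494 to 12288 after TAC in Balb/cByJ, and their part in Slc16a3 was not tested.

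Ldhb (chr6:142490249-142507943, minus strand), the subunit suited to oxidising lactate, was at 58670, 81332 and 66354 in sham Balb/cJ, 47180, 42651 and 28915 in TAC Balb/cJ, 55938, 50693 and 60302 in sham Balb/cByJ and 37082, 39933 and 40486 in TAC Balb/cByJ. TAC and sham did not overlap in either strain. It fell by 0.81 ± 0.18 (-43.1%, adjusted p = 0.0136) in Balb/cJ, the lowest adjusted p of the 35 genes there. In Balb/cByJ the difference of -0.50 ± 0.18 did not pass by limma (adjusted p = 0.114), while the authors' deposited table gave -0.49 with an adjusted p of 1.17e-05. Leaving out 1 library at a time gave falls in Balb/cJ between -0.96 and -0.60, all of which passed, and with the cardiomyocyte scaling it still fell by 0.35 (adjusted p = 0.0312).

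Ldha, the subunit typical of glycolytic muscle, was at 25795, 39486 and 33940 in sham and 31954, 31650 and 33303 in TAC Balb/cJ, and at 27188, 24684 and 24249 and at 25030, 24869 and 22618 in Balb/cByJ. Its TAC differences were -0.01 ± 0.14 (95% interval -0.32 to 0.29) and -0.07 ± 0.14 (-0.38 to 0.24). Per length, Ldha made up 22.7, 24.5 and 25.5% of the 2 subunits in sham Balb/cJ and 31.2, 33.2 and 43.5% in TAC Balb/cJ. In Balb/cByJ its share went from 24.5, 24.6 and 21.2% to 31.1, 29.4 and 27.2%. Every TAC library of a strain thus had a higher Ldha share than every sham library of that strain. Pkm, the pyruvate kinase gene of muscle, ran from 32102 to 59827 and passed in no comparison (-0.31 ± 0.14, adjusted p = 0.125, in Balb/cJ). Gpd1 and Gpd2, of the shuttle that carries cytosolic electrons to mitochondria, ran from 1838 to 2890 and from 286 to 398 and passed in none.

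Of the glycogen genes, Pygm alone passed after TAC, in Balb/cJ, while Pygb, Gys1, Gbe1, Ugp2, Phka1 and Phkg1 did not. Over all genes tested 31.5% were called in that comparison in either direction. Pygm (chr19:6384429-6398459, plus strand), which releases glucose-1-phosphate in muscle, was at 44627, 53667 and 52007 in sham Balb/cJ and 42061, 38972 and 28776 in TAC Balb/cJ, and fell by 0.47 ± 0.15 (-27.7%, adjusted p = 0.0485) without overlap. Without TAC Balb/cJ 6 the difference was -0.30 and did not pass (adjusted p = 0.161). In Balb/cByJ it was at 43556, 39780 and 49722 after sham and 36216, 35159 and 35116 after TAC, also without overlap, with a difference of -0.32 ± 0.15 that did not pass (adjusted p = 0.208). Pygb, the brain form, was at 45085, 44153 and 47664 and at 48648, 46240 and 44806 in sham and TAC Balb/cJ, with a difference of 0.03 ± 0.11. Per length Pygb made up 37.9 to 42.8% of the 2 phosphorylases in sham and 46.2 to 53.6% in TAC Balb/cJ, and 40.5 to 44.1% and 44.7 to 47.0% in Balb/cByJ.

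Glycogen synthesis genes showed no call after TAC in either strain by limma. Gys1, muscle glycogen synthase, was at 3717 to 5322, Gbe1, the branching enzyme, at 1431 to 2061, and Ugp2, which makes the UDP-glucose they use, at 7748 to 11383. Gys1 in Balb/cByJ was lower without overlap, at 4333, 4219 and 3717 after TAC against 4545, 4581 and 5322 after sham (-0.23 ± 0.11, adjusted p = 0.199). Phka1, a regulatory subunit of the kinase that activates phosphorylase, was at 1279, 1457 and 1484 in sham and 2009, 1450 and 1755 in TAC Balb/cJ, just short of the threshold (0.30 ± 0.12, adjusted p = 0.101). Phkg1, its catalytic subunit in muscle, ran from 202 to 835 and passed in none.

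**Figure D3:**
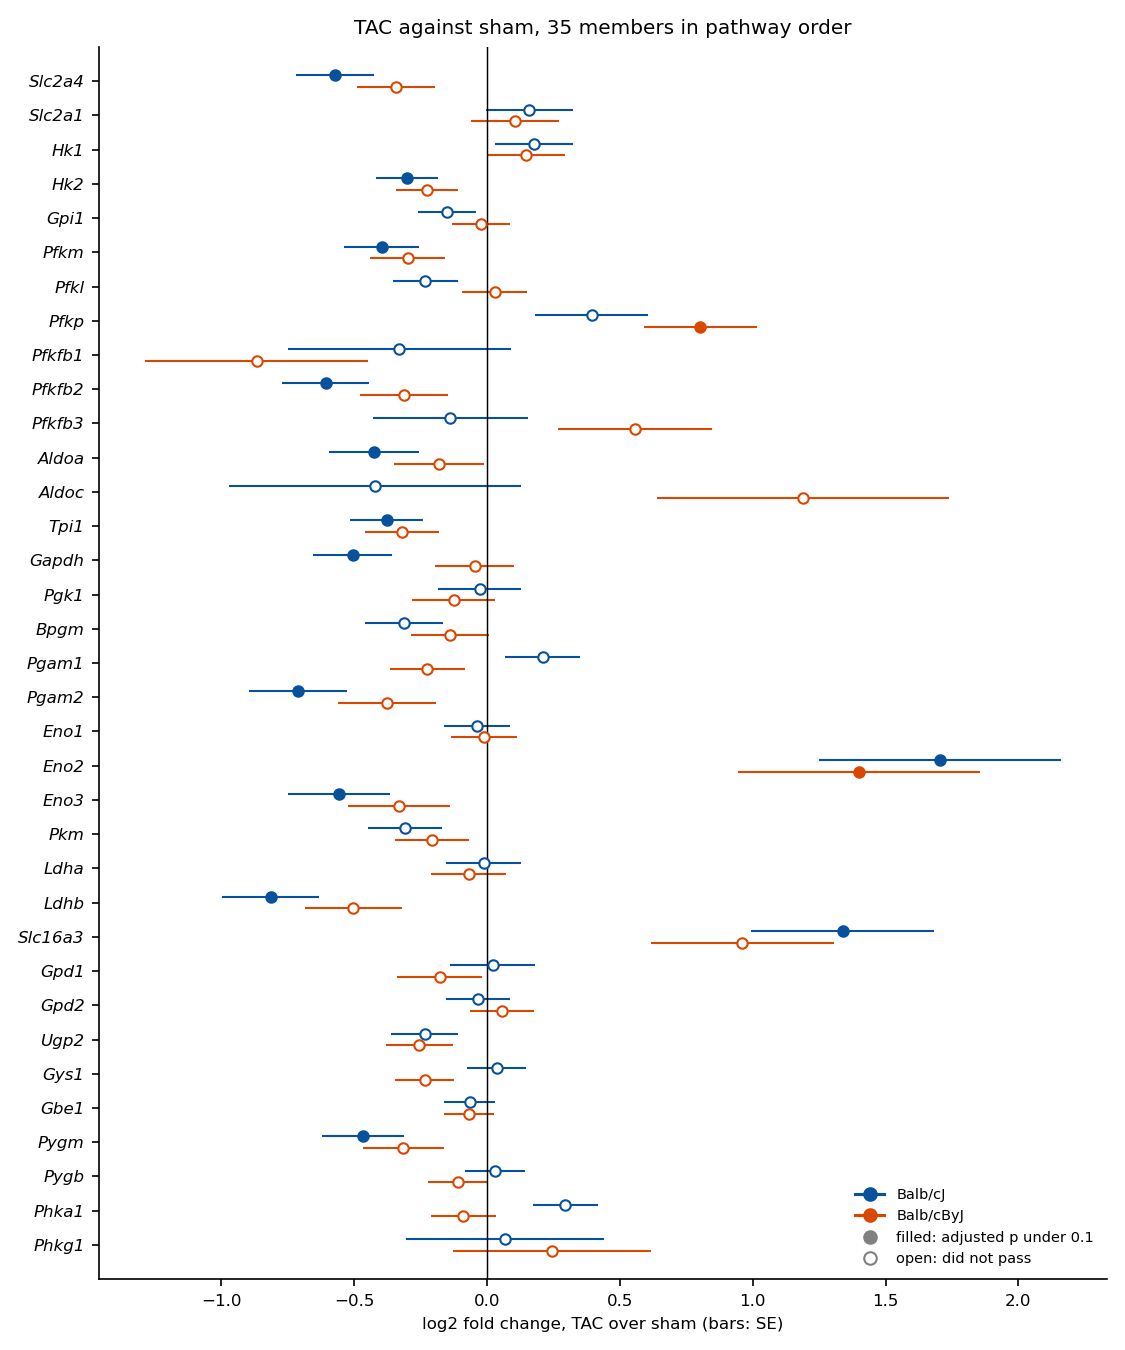
Log2 fold change of TAC over sham with its SE (horizontal axis) for the 35 genes in pathway order (vertical axis), in Balb/cJ (blue) and Balb/cByJ (orange). Filled points passed at an adjusted p under 0.1. Eno2 is filled in both strains, the 11 falls are filled in Balb/cJ alone, and Pfkp is filled in Balb/cByJ alone, although none of the 35 interactions passed.

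In Balb/cByJ hearts as a whole, 2 of the 35 genes were higher after TAC (Pfkp and Eno2, 5.71% against 7.81% of all genes) and 0 were lower by limma (against 4.76% of all genes), with 6 of the 35 at an unadjusted p under 0.05 (17.1% against 26.6%). The median log2 fold change was -0.13 against -0.004 over all genes, and 25 of 35 were negative. Without overlap, 3 genes were higher and 9 lower, shares of 8.57 and 25.7% against 16.4 and 18.8% of all genes. In the authors' deposited table, which tested the same libraries, 4 of the 35 were higher and 8 lower in Balb/cByJ (10.5 and 9.97% of all genes with an adjusted p), namely Eno2, Pfkp, Pfkfb3 and Slc16a3, and Slc2a4, Pfkm, Pfkfb1, Tpi1, Pgam2, Eno3, Ldhb and Pygm. For Balb/cJ, the authors' deposited table had 2 higher and 10 lower (11.7 and 9.79% of all genes), and of the 13 called by limma Pfkm was not called there. Fitted to the 6 Balb/cByJ libraries alone, limma called 4 higher and 5 lower, against 10.3 and 9.99% of all genes in that fit. Leaving out TAC Balb/cJ 6, a library that enters this comparison only through the shared spread, gave the same counts of 4 and 5, against 10.8 and 9.19% of all genes. The count of 2 higher went to 0 without sham Balb/cByJ 1, sham Balb/cByJ 3, TAC Balb/cByJ 4 or TAC Balb/cByJ 5. Shares of all genes in those fits are not given here, so that drop cannot be set against a background. Without TAC Balb/cByJ 6 the count was 2, with Slc16a3 in place of Eno2 and 3.98% of all genes higher. Without it 4 genes were higher and 9 lower with no overlap, against 22.8 and 24.5% of all genes. The sum of the cardiomyocyte markers was 1991960 to 2593917 after sham and 1775537 to 2072405 after TAC, with 0 of 10 called by limma. Fibroblast markers rose in 8 of 9 members, with sums of 43264 to 64092 after sham and 110135 to 153482 after TAC, macrophage markers in 8 of 10, adipocyte markers in 3 of 7, and the part of these in the members' values was not tested.

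The responses to TAC were compared directly by the interaction, the log2 change of Balb/cByJ less that of Balb/cJ. Of the 35 genes 0 passed by limma, and 3 had an unadjusted p under 0.05 (8.57% against 6.8% of all genes). These were Gapdh (0.46 ± 0.21, adjusted p = 0.731), Pgam1 (-0.43 ± 0.20, adjusted p = 0.731) and Phka1 (-0.38 ± 0.17, adjusted p = 0.727). Over all genes tested 1 passed (0.00712%). Without TAC Balb/cByJ 6, 0 of the 35 passed by limma and 0 had an unadjusted p under 0.05, with values of 0.48 ± 0.23 for Gapdh, -0.33 ± 0.20 for Pgam1 and -0.35 ± 0.19 for Phka1. Shares of all genes in that fit are not given here, so its counts cannot be set against a background. With all libraries, the widest differences in size were those of Aldoc (1.61 ± 0.78) and Pfkfb3 (0.70 ± 0.41), with intervals of -0.08 to 3.30 and -0.20 to 1.59. They were 1.49 ± 0.86 and 0.86 ± 0.43 without TAC Balb/cByJ 6. For Ldhb, Slc2a4 and Pygm the intervals of the interaction were -0.25 to 0.87, -0.22 to 0.68 and -0.32 to 0.62, so that these data show neither equal nor unequal falls in the 2 strains. Their interactions were 0.29 ± 0.29, 0.21 ± 0.23 and 0.16 ± 0.24 without TAC Balb/cByJ 6.

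**Figure D4:**
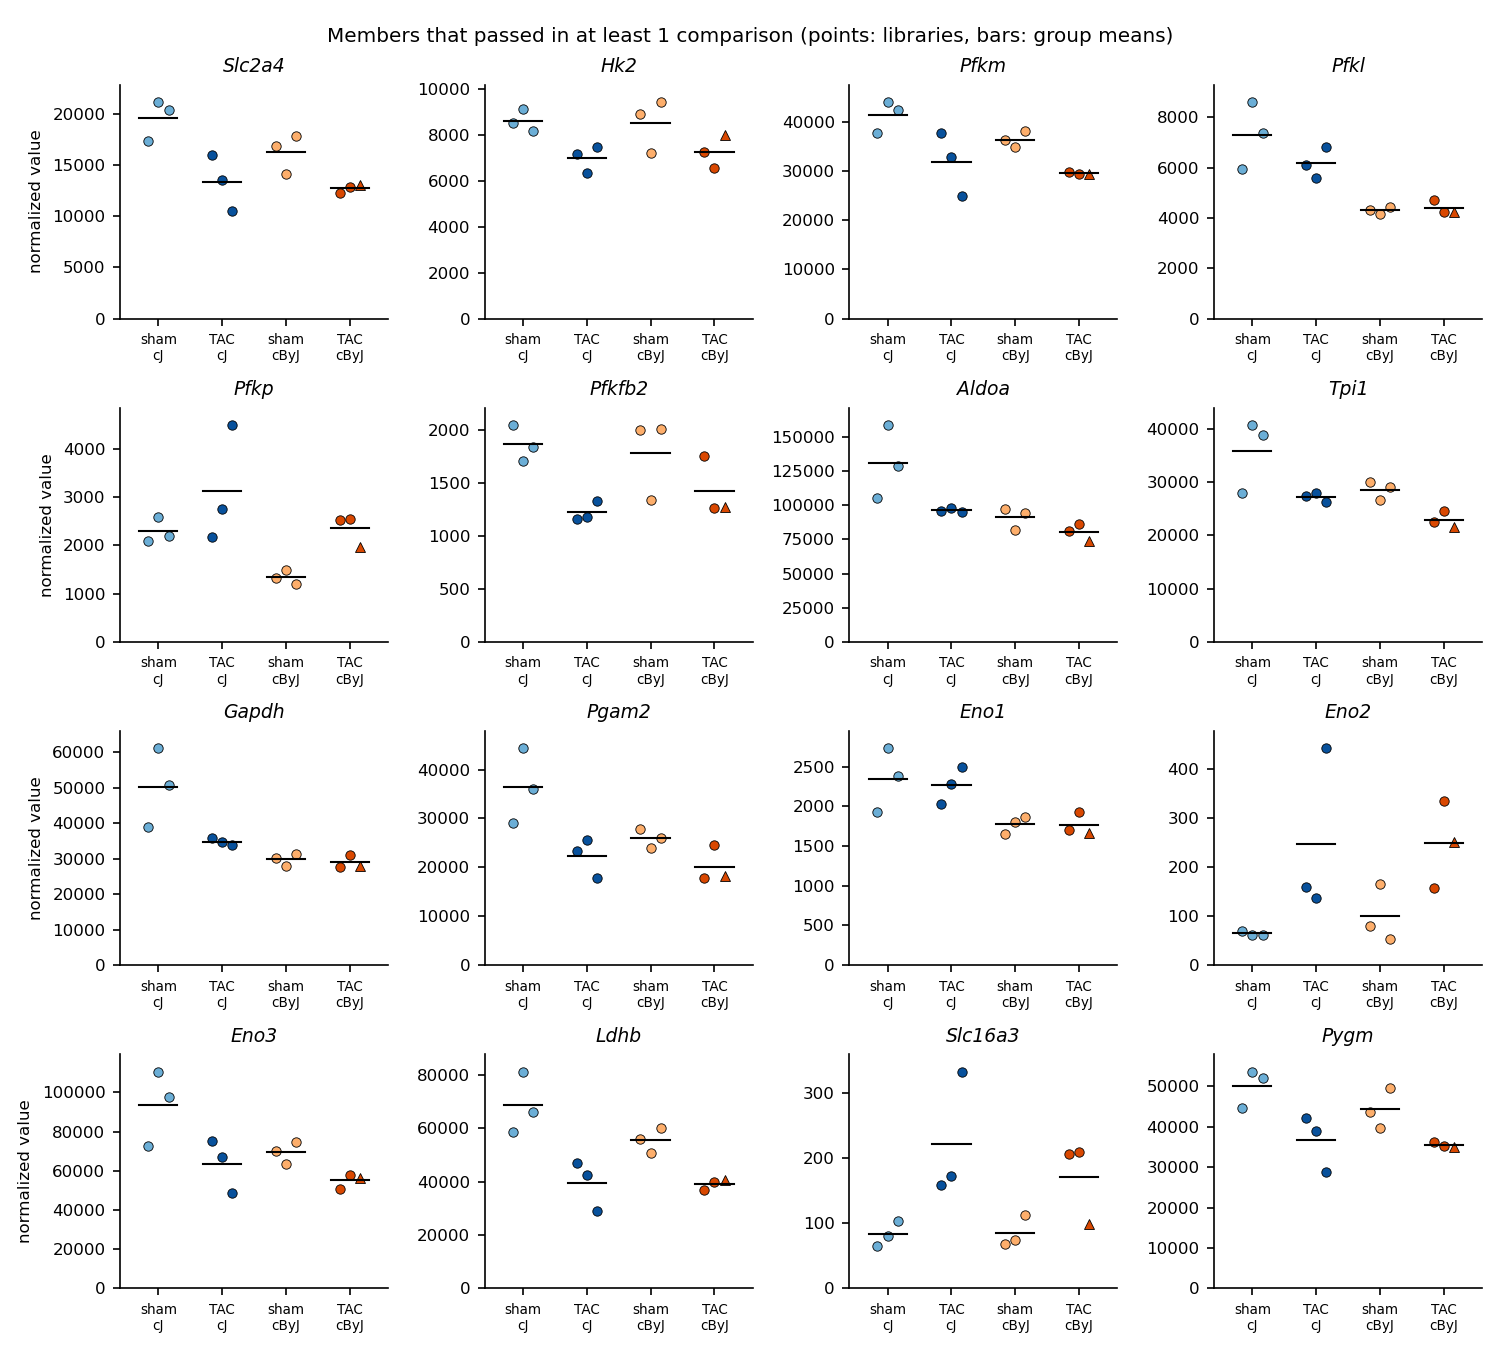
Normalized values (vertical axes, each from 0) of the 16 genes that passed in at least 1 comparison, in each library (points) with group means (bars), for sham and TAC of Balb/cJ (cJ) and Balb/cByJ (cByJ). Triangles mark the library labelled TAC Balb/cByJ 6. Eno2 and Slc16a3 are highest in a TAC Balb/cJ library, and Pfkl and Gapdh of both Balb/cByJ groups lie below both Balb/cJ groups.

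The strains differed before pressure load. After sham surgery, 4 of the 35 genes were lower in Balb/cByJ than in Balb/cJ (11.4%, against 4.1% of all genes) and 0 were higher by limma (4.27% of all genes, and 8.37% in either direction), with 11 of the 35 at an unadjusted p under 0.05 (31.4% against 21.9%). The 4 were Gapdh, Pfkl, Pfkp and Eno1. The median log2 difference was -0.18 against -0.01 over all genes, and 26 of the 35 were negative. The groups did not overlap for 7 genes that were lower (13.8% of all genes) and 1 that was higher (13.4% of all genes).

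Pfkl (chr10:77986947-78009796, minus strand) was at 5945, 8619 and 7372 in sham Balb/cJ and at 4311, 4160 and 4451 in sham Balb/cByJ. It was lower by 0.75 ± 0.12 (-40.4%, adjusted p = 0.0086) without overlap. After TAC its values were 6122, 5571 and 6837 against 4713, 4223 and 4255, again without overlap, with a difference of -0.49 ± 0.12 (adjusted p = 0.249). Gapdh was lower by 0.73 ± 0.15 after sham (-39.6%, adjusted p = 0.0213) and differed by -0.27 ± 0.15 after TAC (adjusted p = 0.592). Both calls after sham held when any 1 library was left out.

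Pfkp was lower by 0.77 ± 0.21 in sham Balb/cByJ (-41.2%, adjusted p = 0.0649), without overlap, and Eno1 by 0.39 ± 0.12 (-23.8%, adjusted p = 0.0995). The rise of Pfkp after TAC in Balb/cByJ uses the same sham libraries as this difference, so the 2 are not separate observations. After TAC the 2 strains overlapped for Pfkp (-0.36 ± 0.21, adjusted p = 0.617). Pfkfb1 was the gene that was higher without overlap in sham Balb/cByJ (0.86 ± 0.42, 1.82-fold), but it did not pass (adjusted p = 0.253). Leaving out sham Balb/cJ 1, which had the lowest values of Pfkl, Gapdh and Eno1 in its group, raised the count of lower genes to 12, against 6.35% of all genes in that fit. It was 2, Gapdh and Pfkl, without either of the other two sham Balb/cJ libraries or without any 1 of sham Balb/cByJ, against 0.968 to 2.42% of all genes. The cardiomyocyte marker sum was 1991960 to 2593917 in sham Balb/cByJ against 2463797 to 3245355 in sham Balb/cJ (0 of 10 called by limma), and atrial markers were higher in 5 of 9 members, with sums of 6686 to 116613 against 9797 to 20159. Among the atrial markers, Myl7, Myl4 and Sln did not overlap, with means of 6472, 11733 and 2702 against 10, 117 and 3.33. The same sham Balb/cJ libraries are the reference for TAC in Balb/cJ. The part of these markers in the strain difference was not tested. With the cardiomyocyte scaling Gapdh alone was still called lower, at -0.41 (adjusted p = 0.0756), while the median of all genes rose by 0.31.

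After TAC, 0 of the 35 genes passed between the strains by limma, as did 1 of all genes tested (0.00712%). At an unadjusted p under 0.05 there were 9 of the 35 (25.7% against 9.77% of all genes). The groups did not overlap for 12 genes that were lower in Balb/cByJ (34.3% against 7.54% of all genes) and 2 that were higher (5.71% against 6.91%). Those lower were Gpi1, Pfkl, Aldoa, Tpi1, Gapdh, Pgam1, Eno1, Pkm, Ldha, Pygb, Gbe1 and Phka1, and those higher were Pfkfb3 and Gpd2. Phka1 was at 2009, 1450 and 1755 in TAC Balb/cJ and at 1367, 1148 and 1168 in TAC Balb/cByJ (-0.49 ± 0.12, adjusted p = 0.228). Ldha was at 31954, 31650 and 33303 against 25030, 24869 and 22618 (-0.42 ± 0.14, adjusted p = 0.343). Pfkfb3 was higher by 0.89 ± 0.29 (adjusted p = 0.335). Without TAC Balb/cByJ 6, 5 of the 35 had an unadjusted p under 0.05, against 9.08% of all genes, and 0 passed by limma, while 0.349% of all genes were called higher and 0.185% lower. The same 12 and 2 genes did not overlap without it, against 12.8 and 12.9% of all genes.

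**Figure D5:**
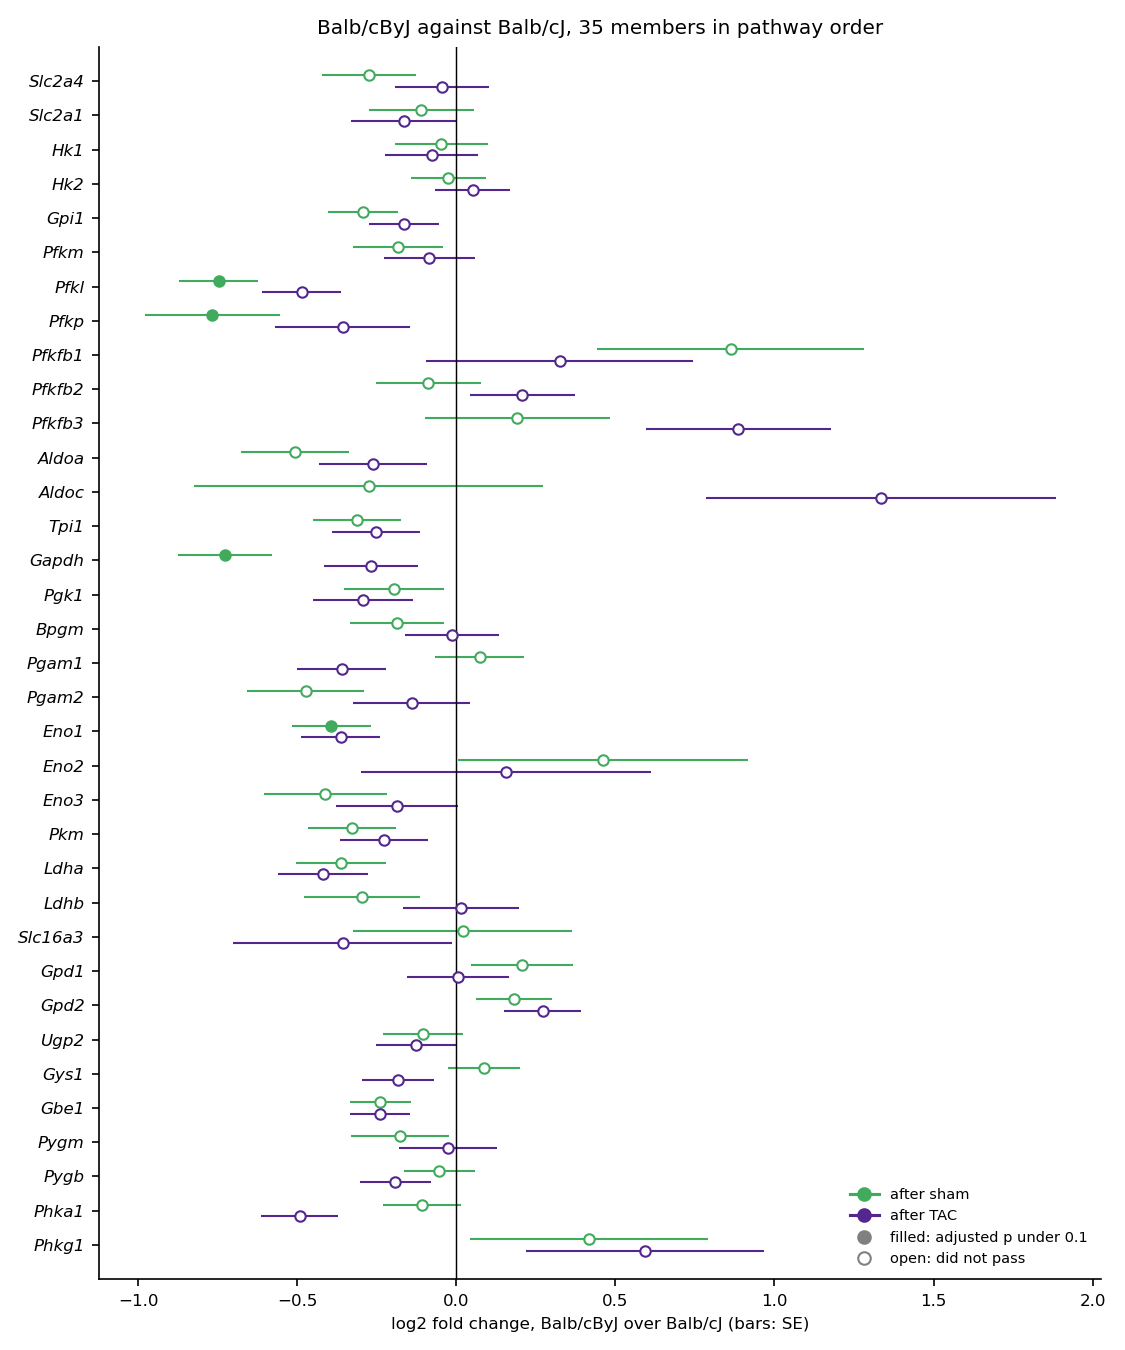
Log2 fold change of Balb/cByJ over Balb/cJ with its SE (horizontal axis) for the 35 genes in pathway order (vertical axis), after sham (green) and after TAC (purple). Filled points passed at an adjusted p under 0.1. Pfkl, Pfkp, Gapdh and Eno1 are filled after sham, none is filled after TAC, and 26 and 25 of the 35 points lie below 0.

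The surroundings of the pathway were read from 6 lists with 131 genes, of which 122 were tested. After TAC in Balb/cJ 13 were higher and 21 lower (10.7 and 17.2%, against 15.3 and 16.2% of all genes), and in Balb/cByJ 4 and 9 (3.28 and 7.38%, against 7.81 and 4.76%). Between the strains after sham, 8 were higher and 6 lower in Balb/cByJ (6.56 and 4.92%, against 4.27 and 4.1%), and after TAC and in the interaction 0 passed by limma. Among other transporters (12 tested, 2 higher and 2 lower in Balb/cJ), Slc5a1, the sodium-coupled glucose transporter SGLT1, was at 20, 33 and 31 in sham and 4, 4 and 1 in TAC Balb/cJ and at 17, 6 and 23 and 4, 5 and 4 in Balb/cByJ. It fell in Balb/cJ (-2.95 ± 0.53, adjusted p = 0.00639) from values that are low throughout. Slc2a8 (GLUT8) was lower in sham Balb/cByJ (-0.40 ± 0.09, adjusted p = 0.0248), at 612 to 632 against 774 to 886.

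Of 16 other glycolytic and gluconeogenic enzymes tested, 4 were higher and 4 lower in TAC Balb/cJ. Ldhd, the D-lactate dehydrogenase of mitochondria, fell from 2213, 2125 and 2380 to 1515, 1370 and 828 in Balb/cJ (-0.90 ± 0.18, adjusted p = 0.00919). Fbp1, the liver fructose bisphosphatase of gluconeogenesis, rose in Balb/cByJ from 5, 5 and 8 to 27, 18 and 19 (1.68 ± 0.35, adjusted p = 0.0339), a call that held without TAC Balb/cByJ 6. Among 23 other glycogen genes 1 was higher and 2 lower in TAC Balb/cJ, and 0 and 2 in TAC Balb/cByJ. Nhlrc1, the ubiquitin ligase malin that guards glycogen structure, fell in Balb/cByJ from 504, 458 and 452 to 330, 321 and 266 (-0.63 ± 0.15, adjusted p = 0.0453), and did not pass without TAC Balb/cByJ 6 (-0.53, adjusted p = 0.111). Ppp1r3d, which brings protein phosphatase to glycogen, was higher in sham Balb/cByJ, at 498, 481 and 522 against 388, 343 and 358 (0.46 ± 0.11, adjusted p = 0.0381).

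In the pentose phosphate, hexosamine and polyol branches (17 tested, 2 higher and 4 lower in TAC Balb/cJ), Akr1b3, the aldose reductase that opens the polyol branch, fell from 3476, 4311 and 4179 to 2920, 2808 and 1831 in Balb/cJ (-0.69 ± 0.16, adjusted p = 0.0136). G6pdx, which opens the pentose phosphate branch, rose in Balb/cByJ from 273, 329 and 243 to 358, 418 and 412 (0.50 ± 0.14, adjusted p = 0.0598), and did not pass without TAC Balb/cByJ 6 (0.47, adjusted p = 0.128). Of 25 genes that carry insulin signals to glucose transport, 5 were higher and 1 lower in Balb/cByJ than in Balb/cJ after sham. Sort1, a sorting receptor of GLUT4 vesicles, was at 2600, 3221 and 2667 against 1425, 1367 and 1551 (0.96 ± 0.17, adjusted p = 0.012). Prkag2, a regulatory subunit of the energy sensor AMPK, was at 1297, 1554 and 1240 against 715, 858 and 896 (0.73 ± 0.15, adjusted p = 0.0212).

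Of 29 transcription factors and HIF-1 targets outside glycolysis, 3 were higher and 5 lower in TAC Balb/cJ, 1 and 2 in TAC Balb/cByJ, and 0 and 3 in sham Balb/cByJ against sham Balb/cJ. Mlxipl (ChREBP, the glucose-responsive factor that switches on glycolytic and lipogenic genes in liver) was lower in sham Balb/cByJ, at 450, 393 and 453 against 904, 652 and 718 (-0.80 ± 0.14, adjusted p = 0.0122). Epas1, the hypoxia-inducible factor HIF-2 alpha, fell in Balb/cJ from 11514, 11862 and 9255 to 7852, 7697 and 5597 (-0.63 ± 0.14, adjusted p = 0.013). Endothelial cells are a main site of Epas1, and their markers fell there in 6 of 7 members, whose part in its fall was not tested. Of the list genes, G6pdx and Fbp1 rose and G6pc3, Galm, Pgm2, Nhlrc1, Vegfa and Egln1 fell in both strains with all libraries kept as labelled, which were picked out after their values were seen.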

How the data were processed

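Mouse heart RNA was sequenced as 12 TruSeq Stranded mRNA libraries, per the labels' protocols. STAR, Subread featureCounts and DESeq2 on mm10 are named in the submitters' processing notes, with annotation release and strand setting not given in the sources used here. The authors deposited 1 table of 27179 genes, 847 of them without a symbol. Its normalized counts, treated as a score here because the authors rounded them to whole numbers after scaling, are not raw counts, so no count model was run. The table's gene length and its shrunken log2 fold changes and adjusted p-values per surgery comparison are the authors' deposited values. Columns of per-sample values not used numbered 0.

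Genes with a mean of at least 10 were kept (14038 of 20278 with any value). Log2(value + 1) was fitted with limma 3.58.1 (R 4.3.3) by group means over all 12 libraries, with a trend and 8 residual degrees of freedom, for 5 contrasts. Fold changes on this scale understate the change of low genes. P-values were adjusted by Benjamini-Hochberg over all genes kept, and calls use an adjusted p under 0.1. The fit was tested on simulated data. Isoenzyme shares, ranges and figures were made with Python 3.11.15, pandas 2.3.3 and matplotlib 3.10.9. Sham columns carry the titles' numbers and TAC columns (4 to 6) only their group. Genes passing in at least 1 contrast, and their isoenzyme partners, are given in full. The members and lists were chosen with earlier results of these data known. Alternatives were another pseudocount, filter, threshold, scaling, spread and sample set, and 1 library left out at a time.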

Additional observations from a re-analysis of the deposited data

How the results depend on the processing

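Counts of the 35 genes moved with scaling and with the libraries used, and so did the shares of all genes called. In Balb/cJ after TAC, 15.3% higher and 16.2% lower over all genes became 28.1 and 6.34% with total rescaling. They became 51.3 and 1.21% with cardiomyocyte rescaling. In Balb/cByJ after TAC, 7.81 and 4.76% became 10.3 and 9.99% with only the groups compared. The counts below are thus not a trait of the 35 genes alone. In Balb/cJ after TAC, the 2 higher genes became 7 with total rescaling, 14 with cardiomyocyte rescaling and 0 with the atrial covariate, and the 11 lower genes became 7 with no filter, 6 at an adjusted p under 0.05, 6 with total rescaling, 4 with only the groups compared, 1 with cardiomyocyte rescaling and 0 with the covariate. Leaving out 1 library gave 4 to 13 lower, with 4 without sham Balb/cJ 2 and 5 without sham Balb/cJ 3 or TAC Balb/cJ 6. In Balb/cByJ after TAC, the 2 higher genes became 1 with no filter, 0 at an adjusted p under 0.05, 1 without a trend, 4 with only the groups compared and 0 with the covariate, and 0 to 4 with 1 library left out. The 0 lower genes became 5 with only the groups compared, and 0 to 5 with 1 library left out. After sham, the 0 genes higher in Balb/cByJ became 1 with only the groups compared, 1 with the replicate block, 1 with cardiomyocyte rescaling, and 0 to 1 with 1 library left out. The 4 lower became 2 at an adjusted p under 0.05, 1 with cardiomyocyte rescaling, 0 with the covariate, and 2 to 12 with 1 library left out. The cardiomyocyte rescaling turned Hk2 to 0.17, Pfkm to 0.073, Aldoa to 0.044, Tpi1 to 0.092 and Pygm to 0.002, and the covariate turned Pfkfb2 to 0.041, all in Balb/cJ after TAC. These 2 alternatives were chosen after seeing the data, and the cause was not tested. The covariate ran with surgery in Balb/cJ and with strain after sham, so that fit cannot tell these apart.

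Sham libraries of the same number had correlations of their deviations of -0.21, -0.07 and 0.17, and those of different numbers -0.19 to 0.25. With 3 libraries per group these values cannot show whether the numbers pair the libraries, which the labels do not say. The replicate block gave 3 genes lower after sham. TAC libraries could not be paired with sham libraries, because the TAC columns carry no number of the titles. Between the strains after TAC, a block by column number was also fitted after seeing the data, and its counts are not given here.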

Other observations

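Eno1b, nearly identical to Eno1, was at 341, 553 and 467 in sham Balb/cJ, 419, 462 and 476 in TAC Balb/cJ, 368, 386 and 344 in sham Balb/cByJ and 329, 332 and 331 in TAC Balb/cByJ.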
